A study of Homo sapiens with 6 samples.

Results

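The plasminogen activation system was examined through 7 genes, taken by name from tables of counts and of TPM (transcript level per length, with an equal total in every library): the activators PLAT and PLAU, the activator receptor PLAUR, the inhibitors SERPINE2 and SERPINB2, and the plasminogen receptors PLGRKT and ANXA2. All 7 were present among the 57914 genes of the tables, once each. RNA had been sequenced from A375, an established human melanoma cell line grown in DMEM with fetal calf serum. Cells were stained with Aldefluor, a dye retained in fluorescent form by cells with aldehyde dehydrogenase (ALDH) activity, and 2 fractions were sorted. The ALDH_High group (3 libraries) is the 5% of cells with the highest signal and the ALDH_Low group (3 libraries) the 5% with the lowest; both carried the dye, and no unsorted or unstained group was used here. The labels number the libraries 1 to 3 in each group but do not say that they came from separate cultures, so p-values measure the spread between these libraries, which may be technical.

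Plasminogen is a circulating zymogen that becomes the broad protease plasmin when a plasminogen activator cuts it. The tissue-type activator (PLAT) works best on fibrin and on cell surfaces, while the urokinase-type activator (PLAU) is held at the cell surface by its glycolipid-anchored receptor, PLAUR. Serpins stop both activators by forming covalent complexes that cells then take up, and surface proteins such as PLGRKT and the complex of ANXA2 with S100A10 bind plasminogen where it can be activated. In melanoma the system is known for its part in matrix breakdown and invasion.

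Within the 7 genes the activators moved in opposite directions, and the receptors did not pass the test. PLAT and SERPINE2 rose in ALDH_High, PLAU fell, and PLAUR, SERPINB2, PLGRKT and ANXA2 did not pass. PLAU rested on 22, 22 and 7 counts in ALDH_High libraries 1, 2 and 3, and was not tested where 10 in every library were required. SERPINB2 had at most 16 counts in any library. All 7 passed the low-count filter of the main test, which does not require counts in every library. Those past an adjusted p of 0.05 (edgeR quasi-likelihood test, Benjamini-Hochberg over all genes) were 3 of 7 (42.9%), 2 higher and 1 lower. Over all 17047 genes tested the background was 20.6% in either direction, 10.8% higher and 9.83% lower. The 7 genes were chosen with earlier results of these data known, so their share cannot be read as enrichment. The median log2 fold change of the 7 genes was -0.091, beside -0.013 for all genes tested. In a bulk library, fewer cells that express a gene and less RNA per cell cannot be told apart.

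**Figure D1:**
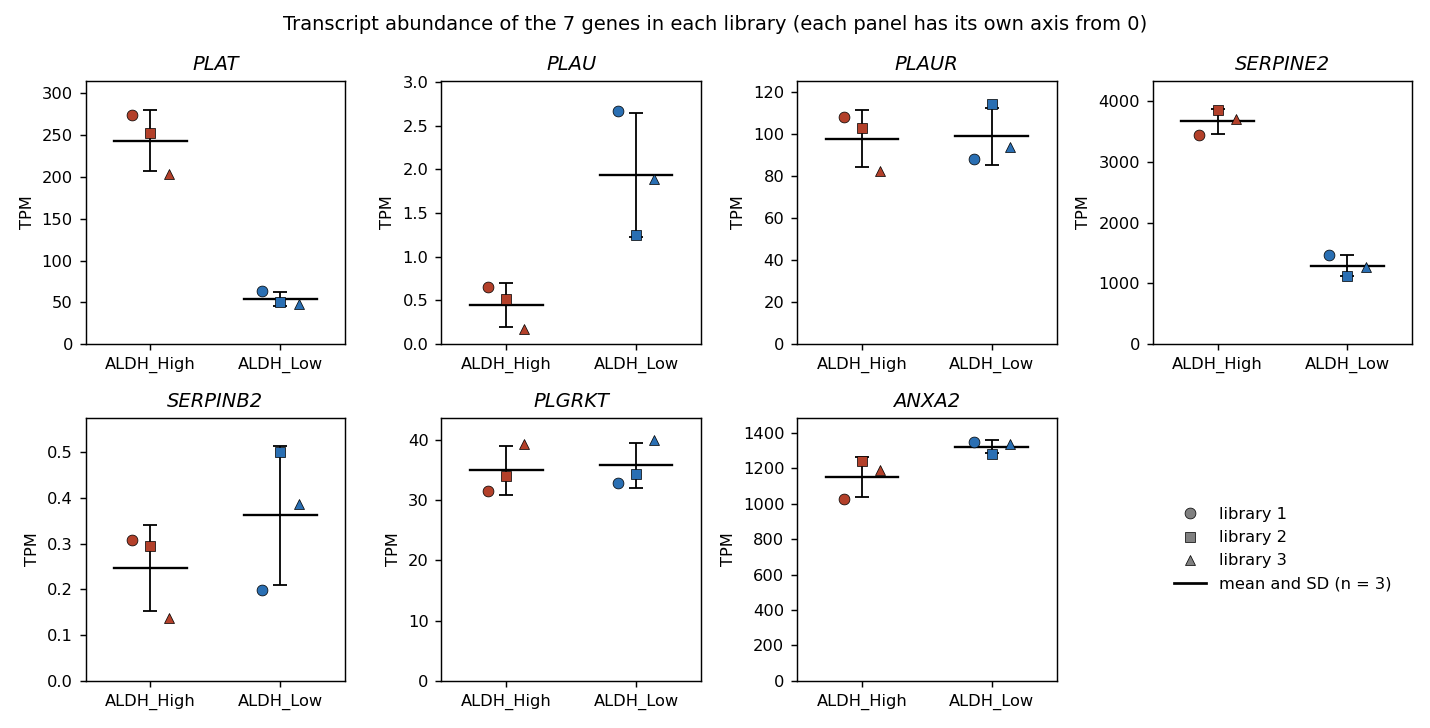
TPM (vertical axis, from 0 in each panel) of the 7 genes in the 3 ALDH_High and 3 ALDH_Low libraries; points are libraries, lines are means and bars are SD. The groups lie apart for PLAT (204 to 274 against 48.5 to 63.1 TPM), SERPINE2, PLAU and ANXA2, and overlap for PLAUR, SERPINB2 and PLGRKT.

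The start-site windows of 4 of these genes are shown because they set a gene that rose (SERPINE2) beside one that fell (PLAU) and 2 that did not pass the test (PLAUR and ANXA2). Each runs 5′ to 3′ on the gene's own strand from 250 bases before an annotated transcript start to 50 bases after its first base. RefSeq (GRCh38.p14) windows were found for 6 of 6 genes looked up; PLAT was not looked up. The window at the MANE Select start of SERPINE2, the transcript start chosen jointly by RefSeq and Ensembl, was read from the GRCh38 genome. Capitals mark matches to the AP-1 motif TGANTCA and to the E-box hexamers CACGTG and CACATG, searched on both strands. The libraries do not tell which start was used.
SERPINE2 at the MANE Select start, chr2:224039237-224039536, minus strand: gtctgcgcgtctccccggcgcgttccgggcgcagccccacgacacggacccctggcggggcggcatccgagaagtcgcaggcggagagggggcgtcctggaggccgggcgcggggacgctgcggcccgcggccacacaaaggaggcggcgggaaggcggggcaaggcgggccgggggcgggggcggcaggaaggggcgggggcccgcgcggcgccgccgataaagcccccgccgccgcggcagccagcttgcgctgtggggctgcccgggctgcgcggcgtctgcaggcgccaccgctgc
SERPINE2 at an internal RefSeq start, chr2:224031429-224031728, minus strand: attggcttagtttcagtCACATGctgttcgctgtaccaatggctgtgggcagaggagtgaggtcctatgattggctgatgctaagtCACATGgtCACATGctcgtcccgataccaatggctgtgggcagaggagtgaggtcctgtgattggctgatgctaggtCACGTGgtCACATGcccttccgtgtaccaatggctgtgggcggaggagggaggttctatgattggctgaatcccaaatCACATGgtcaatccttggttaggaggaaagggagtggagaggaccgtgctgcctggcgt
PLAU at the MANE Select start, chr10:73910882-73911181, plus strand: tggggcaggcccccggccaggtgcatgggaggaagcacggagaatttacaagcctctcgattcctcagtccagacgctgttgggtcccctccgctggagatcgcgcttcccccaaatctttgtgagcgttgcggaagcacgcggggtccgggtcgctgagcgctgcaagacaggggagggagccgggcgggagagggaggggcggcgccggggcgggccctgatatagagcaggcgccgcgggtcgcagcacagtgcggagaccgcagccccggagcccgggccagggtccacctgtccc
PLAUR at the MANE Select start, chr19:43670120-43670419, minus strand: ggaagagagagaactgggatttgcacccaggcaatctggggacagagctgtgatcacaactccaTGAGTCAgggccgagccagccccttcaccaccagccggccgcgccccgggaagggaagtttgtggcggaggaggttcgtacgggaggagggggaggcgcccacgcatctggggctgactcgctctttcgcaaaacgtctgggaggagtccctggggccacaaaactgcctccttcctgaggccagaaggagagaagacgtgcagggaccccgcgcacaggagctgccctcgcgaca
ANXA2 at the MANE Select start, chr15:60397937-60398236, minus strand: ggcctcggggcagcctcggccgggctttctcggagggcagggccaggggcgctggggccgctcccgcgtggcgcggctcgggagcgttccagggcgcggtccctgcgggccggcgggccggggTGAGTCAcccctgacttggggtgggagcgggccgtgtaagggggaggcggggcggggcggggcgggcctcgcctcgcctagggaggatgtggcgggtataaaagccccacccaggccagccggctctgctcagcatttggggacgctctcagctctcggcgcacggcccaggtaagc

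The AP-1 motif occurred 1 time in the PLAUR window and 1 time in the ANXA2 window, and 7.71% of the 35116 RefSeq windows of this length hold it. It was not found in the PLAU or SERPINE2 windows shown. The internal SERPINE2 window shown held 5 copies of CACATG, present in 11.1% of all windows, and 1 of CACGTG, present in 7.26%. It also held 7 matches to CCAAT, present in 34.6%, and a stretch of 33 bases that occurs 2 times. The percentages are shares of windows with at least 1 match, so copy numbers cannot be set against them. Another internal RefSeq window of SERPINE2 (start 224038640), not shown, held 0 matches to these motifs and 0 to the AP-1 motif. The same was true at the MANE Select start, so only the internal SERPINE2 window shown held E-box matches. The SERPINE2 window at the MANE Select start is 81.0% G and C and the PLAU window 70.0%; they held 4 and 3 matches to the GC box GGGCGG, present in 45% of all windows. TATAAA, present in 11.5%, was found in the ANXA2 window alone among the 5 shown. Of the windows not shown, that of SERPINB2 held 1 match to TATAAA, 1 to the AP-1 motif and 2 to CACATG. The PLGRKT window held 0 of each. ACAAAG, a motif of SOX factors present in 16.1%, occurred 1 time in the SERPINE2 window at the MANE Select start and 1 time in that of PLAU. These are matches of letters and not sites of binding.

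PLAT (ENSG00000104368, chromosome 8, 42174718 to 42207709, GRCh38), the tissue-type activator, was the dominant activator transcript in both fractions and rose in ALDH_High. Its level was 274, 253 and 204 TPM in ALDH_High libraries 1, 2 and 3 and 63.1, 50.3 and 48.5 TPM in ALDH_Low libraries 1, 2 and 3. Every ALDH_High library lay above every ALDH_Low library, and ALDH_High library 3 was the lowest of its group. In counts scaled for depth with TMM factors (CPM), PLAT had 466 ± 96.7 in ALDH_High and 106 ± 13.7 in ALDH_Low (SD, n = 3). The difference was a log2 fold change of 2.14 (SE 0.17, edgeR adjusted p 2.28e-05), or 4.39-fold, with a 95% interval of 3.39 to 5.69. By size of change PLAT ranked 759 of 17047 genes tested.

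PLAU (ENSG00000122861, chromosome 10, 73909177 to 73917496), the urokinase-type activator, was a rare transcript in A375 and fell in ALDH_High. Its level was 0.649, 0.521 and 0.169 TPM in ALDH_High libraries 1, 2 and 3 and 2.66, 1.25 and 1.89 TPM in ALDH_Low libraries 1, 2 and 3. The groups did not overlap, and in ALDH_High the highest library had 3.83 times the TPM of the lowest. These levels rest on 22, 22 and 7 counts against 130, 47 and 71. The count of 7 in ALDH_High library 3 has an exact Poisson 95% interval of 2.81 to 14.4, which covers counting error only. The log2 fold change of PLAU was -2.16 (SE 0.49, edgeR adjusted p 0.0107), which is 4.46-fold lower in ALDH_High. PLAU was not tested where 10 counts in every library were required. By limma it missed the threshold with log2(TPM + 0.1), at an adjusted p of 0.0537, and with log2(TPM + 1) and no TPM minimum, at 0.0854. C10orf55, annotated on the opposite strand across PLAU, had 0 counts in all 6 libraries.

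Because PLAT rose and PLAU fell, the ratio of the activators to each other had to differ between the fractions by more than either alone. It restates those changes within each library and is not separate evidence. The ratio of PLAT to PLAU, taken on TPM within each library, was 422, 486 and 1203 in ALDH_High libraries 1, 2 and 3 and 23.7, 40.1 and 25.7 in ALDH_Low libraries 1, 2 and 3. On the log2 scale the mean was 9.29 ± 0.82 in ALDH_High and 4.86 ± 0.41 in ALDH_Low (SD, n = 3), a difference of 4.43. By exact permutation of the libraries (two-sided) p was 0.1, and 3 libraries a group allow none smaller. The ratio of 1203 in ALDH_High library 3 rests on 7 counts of PLAU. PLAT made up 99.8 ± 0.081% of the summed activator TPM in ALDH_High and 96.6 ± 0.857% in ALDH_Low, so the summed activator level (244 ± 36.4 against 55.9 ± 8.56 TPM) was nearly that of PLAT alone.

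**Figure D2:**
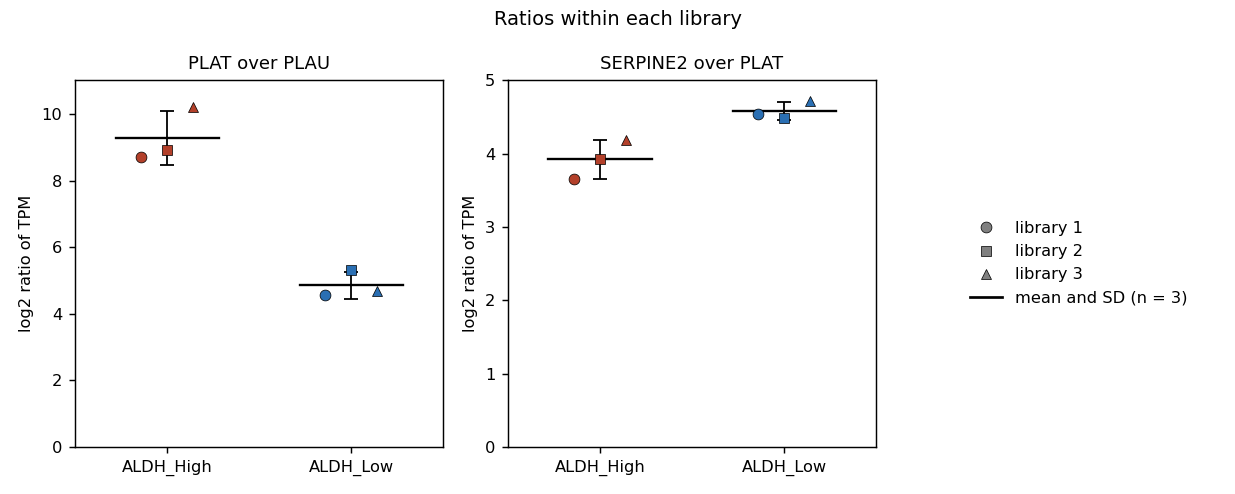
Log2 ratios of TPM within each library (vertical axes from 0) for PLAT over PLAU and for SERPINE2 over PLAT; points are the 3 libraries of each group, lines are means and bars are SD. The PLAT to PLAU ratio is higher in all ALDH_High libraries (8.72 to 10.23 against 4.57 to 5.33), and the SERPINE2 to PLAT ratio is lower in all of them (3.65 to 4.19 against 4.48 to 4.71).

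PLAUR (ENSG00000011422, chromosome 19, 43646095 to 43670547), the receptor of PLAU, was well expressed in both fractions. It had 108, 103 and 82.3 TPM in ALDH_High libraries 1, 2 and 3 and 88.3, 114 and 93.9 TPM in ALDH_Low libraries 1, 2 and 3. The groups overlapped over most of their range. Its log2 fold change was -0.056 (SE 0.16, edgeR adjusted p 0.851). The 95% interval of the fold was 0.754 to 1.23, so a change of the size seen for PLAT or PLAU lies outside it. PLAUR transcripts thus exceeded those of PLAU in every library, by ratios of 167 to 486 in ALDH_High and 33.2 to 91.1 in ALDH_Low, on TPM.

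SERPINE2 (ENSG00000135919, chromosome 2, 223975045 to 224039318) encodes a secreted serpin, protease nexin, that inhibits thrombin, urokinase, tissue-type activator and plasmin. It was the most abundant of the 7 transcripts in ALDH_High, and close to ANXA2 in ALDH_Low. Its level was 3440, 3842 and 3707 TPM in ALDH_High libraries 1, 2 and 3 and 1473, 1122 and 1275 TPM in ALDH_Low libraries 1, 2 and 3. Every ALDH_High library was above every ALDH_Low library. By mean TPM, SERPINE2 ranked 22 among all genes in ALDH_High and 129 in ALDH_Low, and it held 0.366% and 0.129% of all TPM. The log2 fold change was 1.45 (SE 0.12, edgeR adjusted p 3.53e-05), or 2.74-fold, with a 95% interval of 2.27 to 3.31. Its spread within ALDH_High was the smallest of the 7 genes on both scales, with a coefficient of variation of 5.58% on TPM and 3.21% on CPM, while PLAU had 55.6% on TPM.

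SERPINB2 (ENSG00000197632, chromosome 18, 63871692 to 63903888), a mostly intracellular serpin that inhibits urokinase, was near the limit of detection. It had 9, 10 and 5 counts in ALDH_High libraries 1, 2 and 3 and 8, 16 and 12 counts in ALDH_Low libraries 1, 2 and 3. These correspond to 0.138 to 0.307 TPM and 0.199 to 0.499 TPM, and the groups overlapped. A second gene model on the same strand overlaps SERPINB2 and was not analysed here. The log2 fold change of -0.56 (SE 0.52, edgeR adjusted p 0.513) had a 95% interval of -1.73 to 0.60. That interval holds both a fall and a rise, so at these counts the direction was not settled. Of the 9 neighbouring SERPINB genes listed with it, 3 were tested and 2 fell, where 9.83% of all genes tested fell. SERPINB7 had 7.31 ± 0.949 CPM in ALDH_High and 43.8 ± 4.92 in ALDH_Low (SD, n = 3; edgeR adjusted p 5.6e-06, log2 fold change -2.59 with SE 0.15). SERPINB8 had a log2 fold change of -0.53 (edgeR adjusted p 0.011), and SERPINB5 of -0.40 (edgeR adjusted p 0.55). The other 6 had at most 9 counts in any library.

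SERPINE2 transcripts outnumbered those of PLAT, one of its targets, in both fractions, by a smaller margin in ALDH_High. The TPM of SERPINE2 over that of PLAT was 12.55, 15.2 and 18.2 in ALDH_High libraries 1, 2 and 3 and 23.3, 22.3 and 26.3 in ALDH_Low libraries 1, 2 and 3. The groups did not overlap. ALDH_High library 1, which stands apart from libraries 2 and 3 on the second principal component, had the lowest ratio. The mean log2 ratio was 3.92 ± 0.27 in ALDH_High and 4.58 ± 0.12 in ALDH_Low (SD, n = 3), a difference of -0.66. This ratio was chosen after its values were seen and is given with no test.

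PLGRKT (ENSG00000107020, chromosome 9, 5357971 to 5437925), a transmembrane plasminogen receptor with an exposed carboxy-terminal lysine, had 31.4, 34.0 and 39.3 TPM in ALDH_High libraries 1, 2 and 3 and 32.8, 34.4 and 39.9 TPM in ALDH_Low libraries 1, 2 and 3. The groups overlapped almost wholly. The log2 fold change of PLGRKT was -0.091 (SE 0.15, edgeR adjusted p 0.729), and the 95% interval of the fold was 0.744 to 1.18.

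ANXA2 (ENSG00000182718, chromosome 15, 60347134 to 60402883), a phospholipid-binding annexin that with S100A10 holds plasminogen and tissue-type activator at the surface, was the other very abundant transcript. It had 1025, 1240 and 1188 TPM in ALDH_High libraries 1, 2 and 3 and 1349, 1282 and 1337 TPM in ALDH_Low libraries 1, 2 and 3. The groups did not overlap, with ALDH_High library 2 nearest to ALDH_Low. The log2 fold change was -0.25 (SE 0.10), and its edgeR adjusted p of 0.109 missed the threshold, with 0.0601 to 0.332 over the 15 alternatives. The 95% interval of the fold was 0.717 to 0.98, which leaves out 1, and the unadjusted edgeR p was 0.0302. ANXA2 was lower in all 15 alternatives, at log2 fold changes of -0.30 to -0.20. Groups that did not overlap in CPM were seen for 4 of the 7 members, ANXA2 among them, and for 37.8% of all genes tested. Its near-identical copies ANXA2P1, ANXA2P2 and ANXA2P3 had at most 28 counts in any library beside at least 27340 for ANXA2; how reads shared by the copies were assigned is not given in the sources used here. S100A10, its partner, had 1361 ± 82.4 TPM in ALDH_High and 1511 ± 114 TPM in ALDH_Low (SD, n = 3; edgeR adjusted p 0.314, log2 fold change -0.20).

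By level on the per-length TPM scale, the order in ALDH_High was SERPINE2, ANXA2, PLAT, PLAUR, PLGRKT, PLAU and SERPINB2, and in ALDH_Low ANXA2, SERPINE2, PLAUR, PLAT, PLGRKT, PLAU and SERPINB2. PLAT and PLAUR thus changed places between the fractions. Neighbours whose ranges over libraries overlapped were ANXA2 and SERPINE2 in ALDH_Low, and PLAU and SERPINB2 in ALDH_High; in every other neighbouring pair the ranges were apart.

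Around these 7 genes, a list of 40 further genes of the plasminogen system was read by role. The list was chosen with earlier results of these data known, so its shares, and those of its roles below, cannot be read as enrichment. Of the 40 genes, 28 were tested, and 8 rose and 5 fell in ALDH_High (46.4% of those tested, beside 20.6% of all genes). Their median log2 fold change was -0.098. With upper-quartile factors 7 rose and 8 fell, and without ALDH_High library 1, 9 rose and 10 fell. The 12 too low to be tested included plasminogen itself: PLG had 3, 10 and 2 counts in ALDH_High libraries 1, 2 and 3 and 16, 7 and 8 counts in ALDH_Low libraries 1, 2 and 3. The others too low were KLKB1, ST14, HPN, KLK4, SERPING1, PZP, CPB2, HRG, LRP2, FPR1 and FPR2. Among the proteases that activate the activators, 0 of 4 tested passed: CTSB and CTSL, the cathepsins that can cut pro-urokinase, had log2 fold changes of -0.43 and -0.29 (edgeR adjusted p 0.0616 and 0.0884), and the other two, F12 and KLK2, had -0.038 and 0.24. Of these 4, 2 had an unadjusted p under 0.05 in edgeR. In the counts that follow, PLG is included with the proteases where it had an adjusted p. DESeq2 called 0 of 5, and limma 0 of 3 with a TPM minimum and 0 of 9 without one. By contrast, edgeR called 2 of 4 with upper-quartile factors and 2 of 9 without a low-count filter. It called 1 of 4 with a replicate block and 1 of 4 without ALDH_High library 1.

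Of the inhibitors on the list, 4 were tested, and 2 rose, where 10.8% of all genes tested rose. A2M, a large plasma protein that traps plasmin and many other proteases, had 8.82 ± 1.27 CPM in ALDH_High and 1.48 ± 0.921 in ALDH_Low (SD, n = 3; edgeR adjusted p 0.0027, log2 fold change 2.60 with SE 0.45). SERPINA5, the protein C inhibitor, had 3.75 ± 1.48 and 0.662 ± 0.302 CPM (log2 fold change 2.49, edgeR adjusted p 0.00192). The gene model of SERPINA5 overlaps at its end a second model on the same strand (ENSG00000273259), which had 58 to 66 counts in ALDH_High and 0 to 2 in ALDH_Low, so its reads are uncertain. SERPINF2, the plasma inhibitor of plasmin, had a log2 fold change of -1.20 (edgeR adjusted p 0.118), and SERPINI1 of -0.49 (edgeR adjusted p 0.425).

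**Figure D3:**
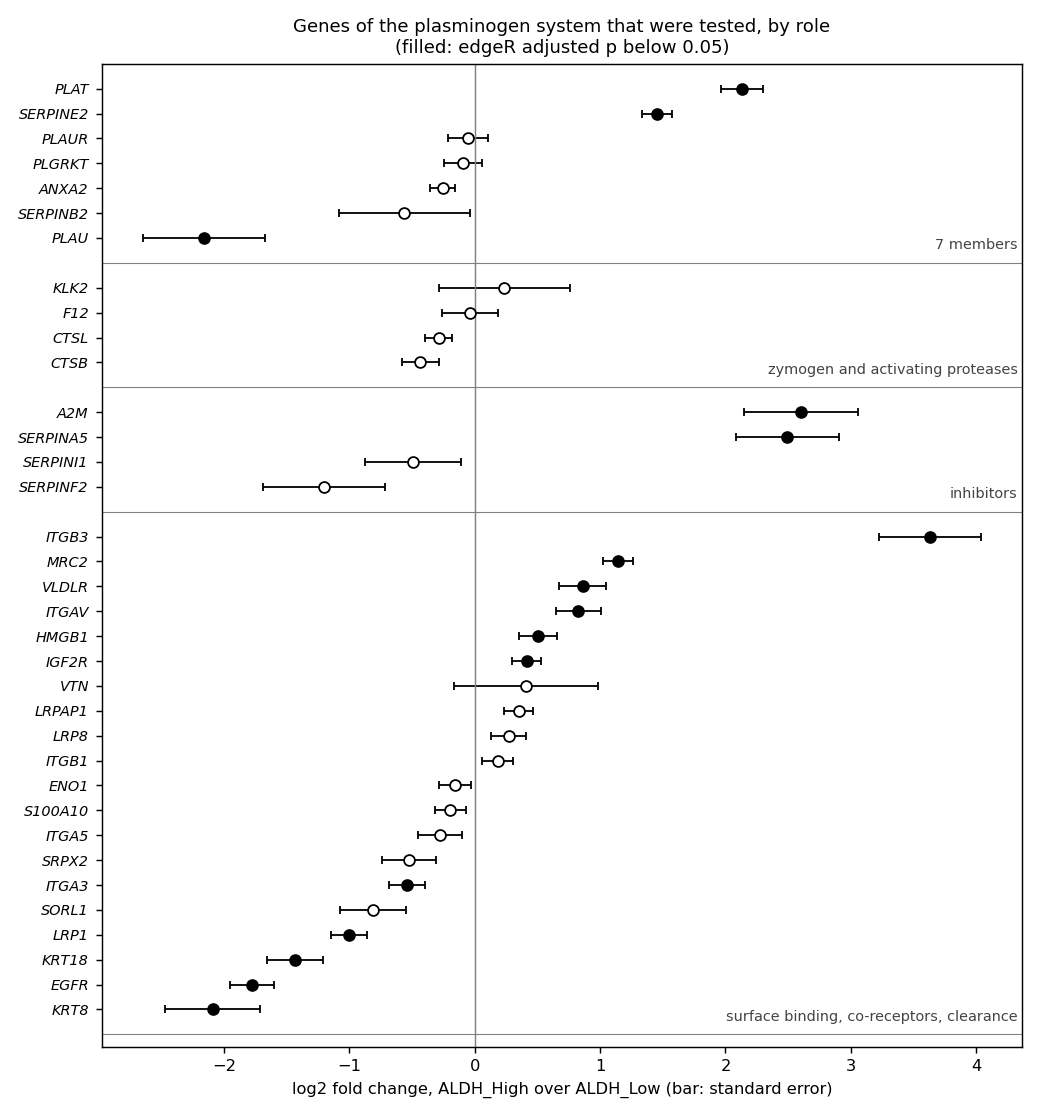
Log2 fold change of ALDH_High over ALDH_Low (horizontal axis) with its standard error for the 7 members and the 28 tested genes of the wider list, grouped by role; filled points have an edgeR adjusted p below 0.05. Points run from ITGB3 at 3.63 to PLAU at -2.16, and the 4 activating proteases are all open.

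Of the surface binding, co-receptor and clearance genes, 20 were tested, and 6 rose and 5 fell (55.0%, beside 20.6% of all genes, 10.8% higher and 9.83% lower). Over the alternatives the count ran from 7 of 24, by limma with log2(TPM + 1) and no TPM minimum, to 15 of 21 without ALDH_High library 1. ITGB3, the beta chain of the vitronectin receptor that binds beside PLAUR, had 127 ± 66.6 CPM in ALDH_High and 10.18 ± 4.91 in ALDH_Low (SD, n = 3; edgeR adjusted p 0.000186, log2 fold change 3.63 with SE 0.40). ALDH_High library 1 was the highest, at 65.8 TPM against 31.9 and 32.2 TPM in libraries 2 and 3, and without it the log2 fold change of ITGB3 was 3.13. Its alpha partner ITGAV rose less (0.83, edgeR adjusted p 0.00911). MRC2, an endocytic collagen receptor that associates with PLAUR, also rose (1.15, edgeR adjusted p 0.000124), as did VLDLR (0.86), HMGB1 (0.50, with groups that overlapped) and IGF2R (0.42).

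EGFR, which signals together with PLAUR, fell from 55.3 ± 11.2 CPM in ALDH_Low to 16.1 ± 2.21 in ALDH_High (SD, n = 3; edgeR adjusted p 9.05e-05, log2 fold change -1.78). LRP1, the endocytic receptor that clears complexes of activators with serpins, fell to 8.17 ± 0.997 from 15.9 ± 0.788 TPM (log2 fold change -1.0, edgeR adjusted p 0.000885). KRT8, a keratin described as a plasminogen-binding protein at the surface of cancer cells, and its partner KRT18 fell by 2.09 and 1.43 on the log2 scale (edgeR adjusted p 0.00343 and 0.00134). KRT8 and KRT18 overlap at their ends on opposite strands, as do LRP1 and STAT6, and the strand setting of the counting is not given in the sources used here. Without ALDH_Low library 1, the highest of its group for both keratins, the log2 fold changes were -1.67 and -1.32. ITGA3 fell by 0.54.

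For each member past the threshold, the 3 genes with the most similar profile over the 6 libraries were sought among 14038 named genes whose mean CPM reached 1. Likeness was the root-mean-square difference of log2 CPM after each gene was centred on its own mean, so it rests mostly on the difference between the groups. Nearest to PLAT were HOXB8 (0.058), a homeobox transcription factor, LRRC4B (0.103), a synaptic adhesion protein, and CHST2 (0.131), a sulfotransferase. Nearest to SERPINE2 were LAMA4 (0.049), a laminin chain, PTN (0.054), the growth factor pleiotrophin, and PALD1 (0.061). Nearest to PLAU, at larger distances, were ARHGEF16 (0.177), SAMD11 (0.264) and PCSK1 (0.333), a proprotein convertase. Like PLAU, all 3 were lowest in ALDH_High library 3 and highest in ALDH_Low library 1. They were chosen for likeness over these same libraries, so this follows in part from the choice. PLAU had 7 counts in ALDH_High library 3.

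**Figure D4:**
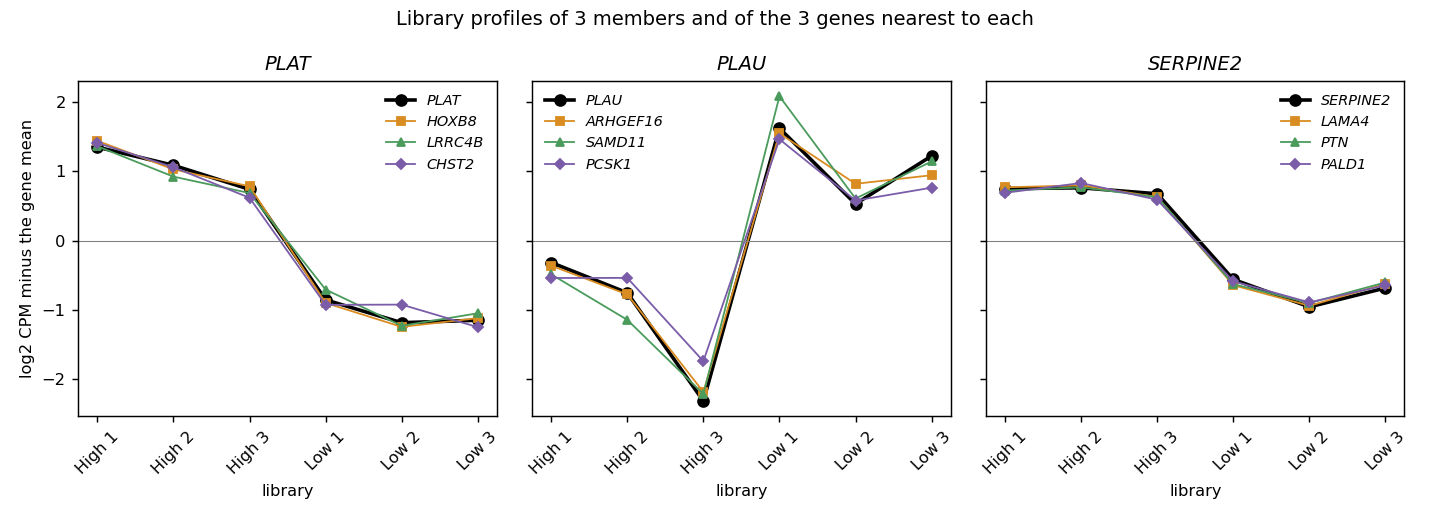
Log2 CPM minus the gene's mean (vertical axis) in the 6 libraries (horizontal axis) for PLAT, PLAU and SERPINE2, each with its 3 nearest genes; lines join the values of a gene and show no order of libraries. PLAT and SERPINE2 are followed closely, at distances of up to 0.131 and 0.061, while PLAU swings most, with ALDH_High library 3 lowest and ALDH_Low library 1 highest.

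Total counts were 26692868 to 34226461 in ALDH_High and 28027125 to 37830603 in ALDH_Low. ALDH1A3, an aldehyde dehydrogenase gene read as a check of the sort, rose 2.50-fold in ALDH_High (edgeR adjusted p 0.000734). It had 279, 519 and 504 TPM in ALDH_High libraries 1, 2 and 3 and 149.5, 182 and 165 TPM in ALDH_Low libraries 1, 2 and 3. ALDH_High library 1 was thus the lowest of its group for this gene. The first principal component of log2 CPM (61.5% of the variance) separated the groups, and the second (15.2%) set ALDH_High library 1 apart, at 56.4 against -25.3 and -38.3. Of the 7 melanocyte lineage markers 4 were tested, and 2 rose and 1 fell. SOX10, a lineage transcription factor, rose 3.46-fold on counts (edgeR adjusted p 3.14e-05), with 397 ± 44.2 TPM in ALDH_High and 111 ± 8.13 TPM in ALDH_Low (SD, n = 3), and S100B rose 19.5-fold on counts (edgeR adjusted p 9.03e-05), with 56.5 ± 3.26 and 2.81 ± 2.13 TPM. MITF, the other lineage transcription factor on the list, fell by 0.92 on the log2 scale (edgeR adjusted p 0.00667). MLANA and TYR were at 3 counts or fewer in every library, and the summed TPM of the 7 was 428 to 514 in ALDH_High and 119 to 130 in ALDH_Low. Summed TPM was 3.62 to 7.90 in ALDH_High and 1.95 to 3.0 in ALDH_Low for 6 white blood cell markers. It was 2.89 to 3.02 and 0.501 to 0.614 for 4 of endothelium, and 17.2 to 23.3 and 12.2 to 16.7 for 5 of epithelium. For 4 of fibroblasts it was 9.34 to 12.1 and 6.16 to 7.09. In ALDH_High the white blood cell, endothelium and epithelium sums were mostly LYZ, KDR and KRT14, at mean TPM of 4.70, 2.57 and 18.9. These had 1.47, 0.200 and 12.2 TPM in ALDH_Low. CD14, PECAM1 and KRT5 of the same lists had lower mean TPM in ALDH_High, at 0.196, 0.127 and 0.130 against 0.784, 0.209 and 1.67. Of these 19 markers 11 were tested, and KDR and LYZ rose and CD14 and KRT5 fell. That is 36.4% of those tested, beside 20.6% of all genes. The calls for CD14 and KRT5 rest on few counts. CD14 had 3, 7 and 12 in ALDH_High libraries 1, 2 and 3 and 24, 31 and 30 in ALDH_Low. KRT5 had 2, 6 and 5 against 108, 32 and 36. No marker in these lists was at 0 in every library, PTPRC of white blood cells reached at most 4 counts, and the part of these markers in the results was not tested.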

How the data were processed

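A375 cells sorted on Aldefluor gave 3 ALDH_High and 3 ALDH_Low libraries (TruSeq Stranded mRNA, per the labels' protocols). The authors deposited counts per gene as whole numbers, treated here as estimated counts because at least 133 genes per library had a count of 0 beside a TPM above 0, and TPM values, which have the same total in each library. Per the submitters' processing notes the tools were STAR 2.5.1b, HTSeq 0.6.1 and DESeq2 on GRCh38; the annotation release, the strand setting and the lengths behind TPM are not given in the sources used here. The design allowed for raw counts, and the same test was kept.

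Genes passing filterByExpr were tested in edgeR 4.0.16 (TMM factors, glmQLFit and glmQLFTest, two-sided, no block), with Benjamini-Hochberg adjustment over all genes and a threshold of 0.05; the code was tested on simulated data. Standard errors are the log2 fold change over the root of F. The alternatives used edgeR, limma 3.58.1 and DESeq2 1.42.0. Rows with an identifier but no gene name held at most 0.0267% of a library's counts and stayed in. Poisson intervals cover counting error only, as reads without molecular identifiers are not independent molecules. Members and lists were chosen with earlier results of these data known. Named were all 7 members, pathway genes past the threshold that changed by at least 1 on the log2 scale in either direction, S100A10, PLG, and the 3 nearest genes of each member past the threshold; other list genes with values were named after these were seen. A planned ratio and 1 further gene are not reported here. Positions are from GENCODE 44 (GRCh38).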

Additional observations from a re-analysis of the deposited data

How the results depend on the processing

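PLAT and SERPINE2 passed in all 15 alternatives, with log2 fold changes of 2.00 to 2.29 and 1.35 to 1.56. PLAU was lower in all 14 that could test it (-2.55 to -1.01) and missed the threshold in 2. The number of members lower was 0 where at least 10 counts in every library were required (PLAU was not tested), and 0 by limma with log2(TPM + 0.1), and with log2(TPM + 1) when no TPM minimum was set; the cause of the last pair was not tested. PLAUR, which did not pass, changed sign without ALDH_High library 3 (0.099) and without ALDH_Low library 2 (0.043), and PLGRKT without ALDH_Low library 3 (0.028); their ranges with 1 library left out were -0.18 to 0.099 and -0.15 to 0.028. Of the wider list, 8 genes were lower with upper-quartile factors, 9 lower without a low-count filter, which tests more genes, and 5 higher by limma with log2(TPM + 1) and no TPM minimum; leaving out 1 library gave 6 to 9 higher and 4 to 10 lower, the most lower without ALDH_High library 1. Over all genes, 3513 passed (1838 higher, 1675 lower). Limma with log2(TPM + 1) and no TPM minimum gave 2006, of which 1155 were higher and 851 lower; with the TPM minimum 1047 were lower, and with log2(TPM + 0.1) 1051. With 1 library left out the counts were 2488 to 4221 in all, 1306 to 2172 of them higher and 1073 to 2049 lower, with the fewest lower without ALDH_High library 2. The PLAT to PLAU difference kept its direction in all 10 alternatives, at 3.16 (with a pseudocount of 1) to 4.72.

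With the replicate number as a block, 3748 genes passed, and the same 3 members passed: PLAT (2.12), SERPINE2 (1.46) and PLAU (-2.18). With the same-numbered libraries taken as pairs, an exact sign-flip test gave p = 0.25 for the PLAT to PLAU ratio (4.43), the smallest that 3 pairs can give. No label says that the replicate number pairs libraries, so they were treated as unpaired in the main test. The deviations of same-numbered libraries correlated at 0.126, 0.061 and 0.102. The other 6 combinations ran from -0.092 to 0.014, and all 6 libraries correlated best with their own number. Deviations were taken from each group's own mean, so they cancel within a group and these correlations are not independent. Low values for the other combinations follow in part from those of the same-numbered libraries, and the 6 best matches are not separate agreements. The pattern is at most a hint from the data and not from the design. Depth limits PLAU, SERPINB2 and PLG, all with 130 counts or fewer in any library.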

Other observations

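HPN encodes hepsin, a surface protease that can activate pro-urokinase, and had too few counts for a test (3 or fewer per library). HPN-AS1, annotated on the opposite strand across HPN, had 223, 268 and 214 counts in ALDH_High libraries 1, 2 and 3 and 33, 18 and 26 counts in ALDH_Low libraries 1, 2 and 3. Its log2 fold change was 3.24 (SE 0.27, edgeR adjusted p 3.18e-05), and it passed in all 15 alternatives, at 2.45 to 3.38. HPN-AS1 was picked out after its values were seen.

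The TPM of S100A10 over that of its partner ANXA2 was 1.42, 1.048 and 1.12 in ALDH_High libraries 1, 2 and 3 and 1.21, 1.10 and 1.11 in ALDH_Low libraries 1, 2 and 3. ALDH_High library 1 was the highest, and the groups overlapped.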
